A study of Mus musculus with 6 samples.

Results

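The guanylate-binding proteins (GBPs) and the immunity-related GTPases (IRGs) are families of interferon-inducible GTPases that defend a cell from within. Here 10 of their genes are described, the GBP genes Gbp2, Gbp3, Gbp5 and Gbp7 and the IRG genes Irgm1, Irgm2, Igtp, Iigp1, Tgtp1 and Tgtp2, among 36870 gene symbols of the RNA-seq table, of which 13266 reached a mean of 0.1 RPKM and were tested. RPKM, reads per kilobase of transcript scaled to the mapped reads of a library, is a level per length, so levels are set side by side between genes. Such comparisons are approximate, since the annotation and the placing of reads that match several genes are not given. The 10 genes were chosen by name after their lower RPKM in these same siRNA libraries was known. Their differences between the groups are therefore a description, with no test, and nothing else rests on them.

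RNA-seq was performed on bone marrow mesenchymal stem cells (BMMSCs) of C57BL/6 mice, plastic-adherent cells grown from flushed femurs and tibias and taken at passage 2 according to the labels. The control group held 3 libraries from cells that received non-targeting siRNA by the labels, a group that the RNA-seq methods call vehicle. The Tet1/Tet2 siRNA-treated group held 3 libraries from cells that received siRNA against Tet1 and Tet2 together, which encode enzymes that oxidize methylated cytosine in DNA. The labels do not say whether the 3 libraries of a group came from separate mice or cultures, so each p-value measures only the spread between these libraries, which may be technical.

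Interferons bind receptors at the cell surface, the receptor's Janus kinases activate transcription factors in the cytoplasm, and these then bind the promoters of genes such as these. GBPs and effector IRG proteins assemble on the vacuole membranes of intracellular parasites and bacteria, where they help to break the vacuole and to expose its contents to inflammasomes. IRG proteins fall into a class with lysine in the P-loop, the nucleotide-binding motif, which attacks vacuoles, and a class with methionine at that position, which sits on the cell's own membranes and holds the lysine class inactive there. Macrophages and fibroblasts exposed to interferon-gamma are the cells in which both families are best known.

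The targeted genes and the makeup of the cultures were examined first. The RPKM of Tet2 was 2.57, 4.08 and 3.71 in control cells against 0.358, 0.238 and 0.202 with the siRNAs, 13.0-fold lower (difference in log2(RPKM + 1) -1.80, SE 0.13, limma adjusted p = 2.88e-05). Tet1 was near the lowest listed value of 0.001 RPKM in every library, at 0.032 to 0.098 RPKM in the control group and 0.001 to 0.010 RPKM in the siRNA group, and was not tested. For Tet3, outside the siRNA pair, the means were 7.03 and 7.66 RPKM, with no call (limma adjusted p = 0.508). The labelled cell type was set against fixed markers. All 10 macrophage markers, Csf1r and Lyz2 among them, were detected, and their summed level was 6942 to 9281 RPKM in the control group and 14338 to 17247 RPKM in the siRNA group, much of it Lyz2 (means of 4439 and 11321 RPKM), with 5 markers called higher, 1 lower and 4 not called. The summed level of 11 stromal markers was 1110 to 1614 RPKM in the control group and 140 to 283 RPKM in the siRNA group, with 8 of 9 tested called lower, and the stromal markers Thy1 and Lepr stayed under the 0.1 RPKM minimum. Of all genes tested, 29.8% were called lower and 14.7% higher. Fewer cells of a type and less RNA per cell cannot be told apart in these bulk libraries, and the part of these marker shifts in the results that follow was not tested.

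The P-loop shows the class of each protein, and the coding bases around it are printed for that reason, from GENCODE M21 transcripts on GRCm38. Each run is 24 coding bases, with the lysine or methionine codon in capitals.
Gbp2: ggcctctaccgcacaggcAAAtcc
Gbp3: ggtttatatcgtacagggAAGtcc
Gbp5: ggtctttatcgcacaggcAAAtcc
Gbp7: ggactataccgtacgggaAAAtcc
Irgm1: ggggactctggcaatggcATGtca
Irgm2: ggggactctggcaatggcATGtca
Igtp: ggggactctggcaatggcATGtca
Tgtp1: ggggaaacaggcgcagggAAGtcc
Tgtp2: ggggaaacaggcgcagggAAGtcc
The 3 methionine-class genes shared the same 24 bases, and so did Tgtp1 and Tgtp2. Iigp1 also had the lysine codon AAG.

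The reading frames of the GBP genes were 589 (Gbp2), 620 (Gbp3), 590 (Gbp5) and 638 (Gbp7) codons long, and those of the IRG genes 407 (Irgm2) to 423 (Igtp) codons. Tgtp1 and Tgtp2 encoded the same protein, with 415 of 415 residues identical. Gbp3 and Gbp7 shared 73.1% of aligned residues, Irgm2 and Igtp 54.3%, and Iigp1 and Tgtp1 45.6%. Across the classes, a methionine-class protein shared 29.8% to 33.9% of aligned residues with a lysine-class protein.

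These likenesses bear on how far a level belongs to 1 gene. For Tgtp1, 83.3% of the transcript's 100-base windows, the length of a read, were also found in another gene, most of them in Tgtp2. The share was 80.4% for Tgtp2, 10.2% for Gbp7, 5.67% for Igtp, 2.48% for Irgm2 and 0.929% for Gbp3. Gbp2, Gbp5, Irgm1 and Iigp1 shared no window. How the authors placed reads that match several genes is not given in the sources used here, so the split between Tgtp1 and Tgtp2 is uncertain and their sum is given as well. Igtp (chr11:58199556-58207591, plus strand) also overlaps Irgm2 (chr11:58199618-58222782, plus strand), so part of their reads cannot be assigned by position. The same holds for Tgtp1 (chr11:48985327-48994172, minus strand) and Gm12185 (chr11:48904656-48992226, minus strand), another gene of the families.

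The promoters are shown because the interferon pathway acts on them. The ISRE and GAS cores were searched on both strands in RefSeq promoters on GRCm38.p6, from 250 bases before to 50 bases after the transcript start. The ISRE core, GAAANNGAAA, is the core of the interferon-stimulated response element, and the GAS core, TTCNNNGAA, that of the gamma-activated sequence. At least 1 promoter was matched for 9 of the 10 genes, with 10 promoters in all, since Gbp3 has a second one. Each printed window is 60 bases of the gene's own strand, with matches in capitals (TTTCNNTTTC is the ISRE core read on the other strand).
Gbp2 (chr3:142620579-142620638, plus strand): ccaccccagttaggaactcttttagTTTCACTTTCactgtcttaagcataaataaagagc
Gbp3 (chr3:142559977-142560036, plus strand): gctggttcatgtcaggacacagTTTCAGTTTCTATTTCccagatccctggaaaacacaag
Gbp5 (chr3:142496744-142496803, plus strand): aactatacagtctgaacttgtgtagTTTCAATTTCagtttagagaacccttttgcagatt
Gbp7 (chr3:142530258-142530317, plus strand): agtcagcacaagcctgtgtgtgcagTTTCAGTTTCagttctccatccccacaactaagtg
Irgm1 (chr11:48871421-48871480, minus strand): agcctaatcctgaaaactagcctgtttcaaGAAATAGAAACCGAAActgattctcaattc
Irgm2 (chr11:58214888-58214947, plus strand): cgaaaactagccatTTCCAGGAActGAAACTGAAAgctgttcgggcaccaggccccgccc
Igtp (chr11:58199496-58199555, plus strand): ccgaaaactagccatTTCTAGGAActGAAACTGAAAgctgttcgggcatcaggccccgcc
Tgtp1 (chr11:48992289-48992348, minus strand): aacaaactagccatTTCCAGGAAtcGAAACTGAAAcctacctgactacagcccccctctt
Tgtp2 (chr11:49064248-49064307, minus strand): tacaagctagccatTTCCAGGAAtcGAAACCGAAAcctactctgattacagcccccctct

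The ISRE core was found in 9 of the 10 promoters, 1 for each of the 9 genes, against 3.44% of all 32851 RefSeq promoters. The GAS core was found in 6 of the 10 promoters (Gbp5, Gbp7, Irgm2, Igtp, Tgtp1 and Tgtp2), against 8.30% of all promoters, and these 6 held both cores, which 0.454% of all promoters did. In Irgm2, Igtp, Tgtp1 and Tgtp2 the GAS core stood just before the ISRE core, 2 bases apart. In the 4 GBP promoters that held it the ISRE core ran on the opposite strand, as the map of motif matches shows, and in Gbp3 and Irgm1 a pair of ISRE matches overlapped. A match is a description of the letters in the window and shows no binding.

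**Figure D1:**
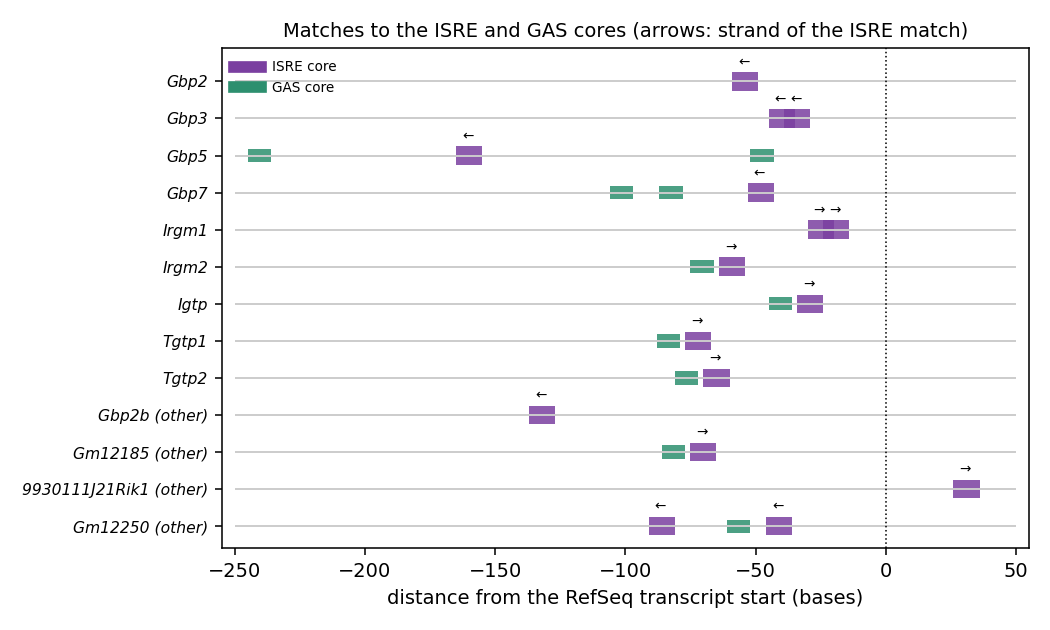
Matches to the ISRE core (purple, arrows giving the strand) and the GAS core (green) by distance in bases from the RefSeq transcript start, for the 9 genes with a promoter and the 4 other GBP and IRG genes with an ISRE match. The 4 GBP promoters among the 9 carry the ISRE core on the opposite strand, and the Irgm2, Igtp, Tgtp1 and Tgtp2 promoters carry the GAS core directly before it.

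The 4 GBP genes lie on chromosome 3 with Gbp2b among them, within chr3:142493978-142638008, all on the plus strand. Gbp2, a prenylated GBP that coats pathogen membranes, was at 20.4, 23.0 and 20.1 RPKM in the control group and at 2.23, 2.47 and 1.47 RPKM in the siRNA libraries. Its mean was 21.1 ± 1.60 RPKM against 2.06 ± 0.522 RPKM (SD, n = 3 each), 10.3-fold lower. Its difference in log2(RPKM + 1), siRNA minus control, was -2.87 (SE 0.13), and the groups were far apart.

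Gbp3 was at 13.4, 15.1 and 14.6 RPKM in the control group and at 1.89, 1.48 and 1.73 RPKM in the siRNA group, 8.45-fold lower on the means (log2 difference -2.51, SE 0.09). Gbp7, its closest relative among the 4, was at 6.95, 6.84 and 8.81 RPKM and at 0.650, 0.814 and 0.947 RPKM, 9.37-fold lower (log2 difference -2.24, SE 0.12). For Gbp7 the third control library was the highest of its group. Gbp5, a prenylated GBP known for promoting NLRP3 and AIM2 inflammasome responses, was the lowest of the 4 at 2.51, 2.59 and 2.66 RPKM in the control group and 0.300, 0.367 and 0.457 RPKM in the siRNA group. It was 6.90-fold lower, and its log2 difference of -1.38 (SE 0.08) was the smallest of the 10 genes, since the pseudocount of 1 RPKM weighs most on low levels.

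Of the methionine-class IRG genes, Irgm1, a regulator that also acts in autophagy, had the highest level of the 10 in every library. It was at 85.0, 86.9 and 79.6 RPKM in the control group and at 13.8, 16.2 and 13.8 RPKM in the siRNA group, with means of 83.8 ± 3.79 and 14.6 ± 1.36 RPKM (SD, n = 3 each). This is 5.74-fold lower (log2 difference -2.45, SE 0.08). Its siRNA level still lay near the control levels of Gbp3 and Iigp1.

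Irgm2 was at 23.4, 23.6 and 23.3 RPKM in the control group and at 5.40, 6.28 and 6.51 RPKM in the siRNA libraries, 3.87-fold lower (log2 difference -1.79, SE 0.08). Igtp, also named Irgm3, was at 20.8, 21.9 and 18.2 RPKM and at 5.69, 5.42 and 4.71 RPKM, 3.85-fold lower (log2 difference -1.76, SE 0.10). The ranges of Irgm2 and Igtp overlapped in the siRNA group and not in the control group, and these 2 neighbours had the smallest fold differences of the 10 genes.

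The 3 lysine-class IRG genes described here were close to absent in the siRNA libraries. Iigp1, encoding Irga6, an effector that loads early onto the vacuole of Toxoplasma, was at 14.2, 15.4 and 14.3 RPKM in the control group and at 0.068, 0.212 and 0.268 RPKM in the siRNA libraries. Its means of 14.7 ± 0.647 and 0.183 ± 0.103 RPKM (SD, n = 3 each) differed 80.2-fold (log2 difference -3.73, SE 0.10). At the depth estimated from the steps of the RPKM values, about 32400000 to 38500000 reads a library, Iigp1 stood for about 1450 to 1651 reads in a control library and 8 to 29 in a siRNA library, so its fold rests on few reads.

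Tgtp1 and Tgtp2 encode Irgb6, another vacuole-loading effector. Tgtp1 was at 10.6, 10.3 and 9.64 RPKM in the control group and at 0.129, 0.358 and 0.150 RPKM in the siRNA group, 47.9-fold lower (log2 difference -3.21, SE 0.10). Tgtp2 was at 15.4, 15.4 and 15.2 RPKM and at 0.147, 0.623 and 0.300 RPKM, 43.0-fold lower (log2 difference -3.60, SE 0.13). For both, the second siRNA library was the highest of its group and the first the lowest. Their sum, which does not depend on how shared reads were split between them, was 25.5 ± 0.604 RPKM in the control group and 0.569 ± 0.367 RPKM in the siRNA group (SD, n = 3 each), 44.8-fold lower. The sum would differ if shared reads were dropped or counted for both genes, or if it held reads of Gm12185, which Tgtp1 overlaps. Without siRNA replicate 2 the folds were 70.3 for the sum, 73.0 for Tgtp1 and 68.6 for Tgtp2. Estimated reads in the siRNA libraries were 14 to 39 for Tgtp1 and 16 to 67 for Tgtp2.

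In each of the 10 genes every siRNA library was below every control library, a pattern that 35.9% of all genes tested had. At an adjusted p under 0.05 all 10 were called lower, where 29.8% of all genes were called lower and 14.7% higher. The choice of the genes fixed both counts, so nothing is read from them. The split over all genes depended on the scaling, with 3952 genes lower and 1953 higher as deposited, 3052 and 2738 after median ratio scaling, and 2635 and 3598 after quantile normalization. The median log2 difference of the 10 genes was -2.48 and that of all genes tested was -0.09. Quantile normalization moved these medians to -2.33 and 0.06. The log2 differences of the 4 genes with the lowest siRNA levels rested on the pseudocount, and with 0.01 in place of 1 they were -6.44 for Iigp1, -5.66 for Tgtp1, -5.61 for Tgtp2 and -2.77 for Gbp5.

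**Figure D2:**
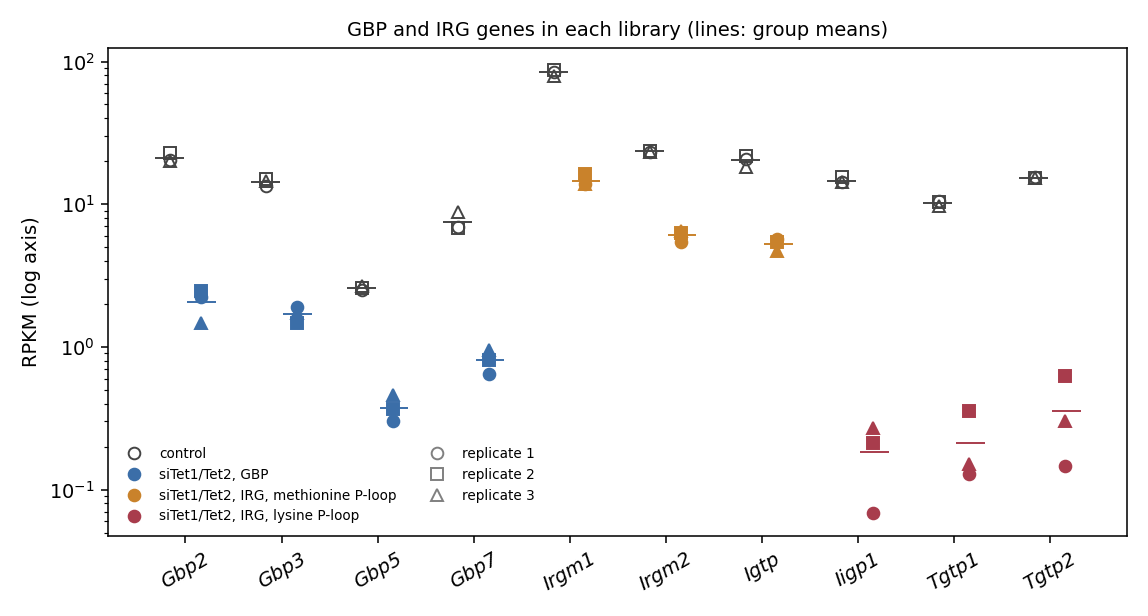
RPKM (log axis) of each gene in the 3 control libraries (open) and the 3 siRNA libraries (filled, coloured by class), with symbols for the replicate number and lines for group means. The siRNA points lie below the control points for all 10 genes, by most for Iigp1, Tgtp1 and Tgtp2, where the control means of 10.2 to 15.3 RPKM stand against siRNA means of 0.183 to 0.357 RPKM.

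The classes, as made up by the chosen genes, differed in how much of the control level remained. The summed level of the GBP genes was 43.2, 47.5 and 46.1 RPKM in the control libraries and 5.07, 5.13 and 4.60 RPKM in the siRNA libraries, so 10.8% of the control level remained. Of the methionine-class sum, 129.2, 132.4 and 121.1 RPKM in the control libraries and 24.9, 27.9 and 25.1 RPKM in the siRNA libraries, 20.3% remained. Of the lysine-class sum, 40.2, 41.1 and 39.2 RPKM against 0.344, 1.19 and 0.718 RPKM, 1.87% remained. A smaller part of the level of the 3 lysine-class IRG genes than of the 3 methionine-class genes was thus present in each siRNA library. These genes were chosen after their lower RPKM was known, so the contrast does not extend to effectors and regulators in general. Of other IRG genes, Gm4951 kept 5.05% of its control mean, the effector gene Gm12250 11.8% and Gm5431 28.1%. The P-loop class of these other genes was not examined.

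The share of each class in the summed RPKM of the 10 genes is a measure within a library, which a scale factor for the whole library leaves as it is. The methionine class made up 58.7% to 60.7% of the sum in the control libraries and 81.5% to 82.5% in the siRNA libraries. The lysine class went from 18.6% to 19.0% in the control libraries to 1.14%, 3.49% and 2.36% in the siRNA libraries. The GBP share went from 20.3% to 22.3% to 15.0% to 16.7%. Ranges of the groups did not overlap for any class, and since the same contrast chose the genes, these shares carry no test.

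**Figure D3:**
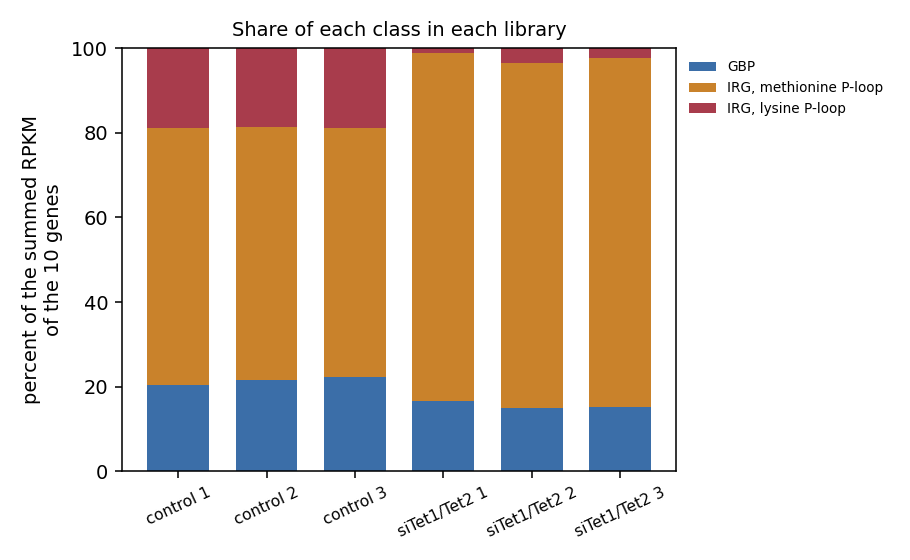
Percent of the summed RPKM of the 10 genes that came from GBP genes (blue), methionine-class IRG genes (orange) and lysine-class IRG genes (red), 1 bar a library. The red part is 18.6% to 19.0% in the control libraries and 1.14% to 3.49% in the siRNA libraries.

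The order of levels also differed. In the control group it ran from Irgm1 and Irgm2 through Gbp2, Igtp, Tgtp2, Iigp1, Gbp3, Tgtp1 and Gbp7 to Gbp5. Neighbours whose library ranges overlapped there were Gbp2 with Igtp, Tgtp2 with Iigp1, and Iigp1 with Gbp3. In the siRNA group Irgm1 was again first, followed by Irgm2 and Igtp, Gbp2 and Gbp3, Gbp7, and last Gbp5, Tgtp2, Tgtp1 and Iigp1, with overlapping ranges of neighbours inside each of these sets. Iigp1 thus went from the middle of the order to its end, below Gbp5.

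Whether the genes also moved together within a group was asked with deviations from the group means, which the choice of genes did not use. Of 45 gene pairs, 24 had a positive Pearson correlation over the 6 libraries and 8 had one over 0.7, and the median was 0.21. The values ran from -0.95 for Gbp7 and Igtp to 0.97 for Irgm1 and Tgtp1, and Tgtp1 and Tgtp2, which share reads, had 0.90. With 3 libraries a group these are descriptions of few points that share library and depth. The spread within groups did not show the 10 genes moving as 1 block.

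The pattern of the 10 genes was then set beside that of other genes. Among 8224 candidates with a mean of at least 5 RPKM, the 5 whose log2(RPKM + 1) over the 6 libraries was most like the mean profile of the 10 had Pearson correlations of 0.9994 to 0.9999, which mostly reflect the difference between the groups. They were Mnda, at a mean of 119.2 RPKM in the control group and 12.3 RPKM in the siRNA group, Ifi205 at 59.3 and 4.22 RPKM, the nuclear body gene Sp110 at 22.0 and 6.86 RPKM, Pyhin1 at 33.3 and 2.98 RPKM, and Rars at 85.4 and 53.9 RPKM. Mnda, Ifi205 and Pyhin1 belong to the interferon-inducible PYHIN family, and Rars encodes the arginyl-tRNA synthetase. The group difference of Rars was 1.59-fold, which shows that likeness of pattern is not likeness of size.

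The other genes of the families, a list of 16, were examined in the same fit. This and the other lists were chosen with earlier results of these data known. Their calls and p-values are therefore no independent support. Of the 14 family genes tested, 13 were called lower, 0 higher and 1 not called by limma (0 higher also at an unadjusted p under 0.05). The shares of all genes tested were 29.8% called lower and 14.7% called higher. The median log2 difference of the 14 was -1.21 against -0.09 for all genes. Of the 100-base windows of Gbp6, 82.9% were also found in another gene, and of those of Gbp10, 70.9%, nearly all in the gene model Gm43302, so the levels of these genes are uncertain. Gbp6 fell 40.0-fold, from 6.96 to 0.174 RPKM (limma adjusted p = 6.67e-07), and Gbp10 fell 33.8-fold, from 2.38 to 0.0703 RPKM (limma adjusted p = 5.12e-06). Gbp6 and Gbp10 lie on chromosome 5, as do Gbp4, Gbp8, Gbp9 and Gbp11, which fell 7.74-fold, 2.31-fold, 3.41-fold and 6.25-fold. Gbp4, Gbp8 and Gbp9 overlap one another on the minus strand, so part of their reads cannot be assigned by position. Levels of Gbp4 and Gbp11 were low, with control means of 0.392 and 0.181 RPKM. The folds of the 4 GBP genes of chromosome 3 were 6.90 to 10.3.

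Gm4951, an IRG gene of the Iigp1 locus on chromosome 18, fell 19.8-fold from 15.4 to 0.776 RPKM (limma adjusted p = 1e-06). Gm12250, which encodes the effector Irgb10, fell 8.45-fold from 14.3 to 1.69 RPKM (limma adjusted p = 1.47e-06). Gbp9 fell 3.41-fold from 14.3 to 4.19 RPKM (limma adjusted p = 3.88e-05), and Gbp8 2.31-fold from 2.00 to 0.863 RPKM (limma adjusted p = 0.00161). The smallest of the called differences was that of Gbp11, at 0.181 and 0.029 RPKM (limma adjusted p = 0.036), and its call was lost without control replicate 2 or 3, without any 1 of the siRNA libraries, and without the variance trend. Gbp2b and Irgc1 stayed under the minimum of 0.1 RPKM.

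Irgq, a divergent family member that is not known as interferon-inducible, was at 5.16 RPKM in the control group and 5.78 RPKM in the siRNA group and was not called (limma adjusted p = 0.28), but was called higher after quantile normalization. The family plot shows it as the only tested gene of the families with a difference above 0.

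**Figure D4:**
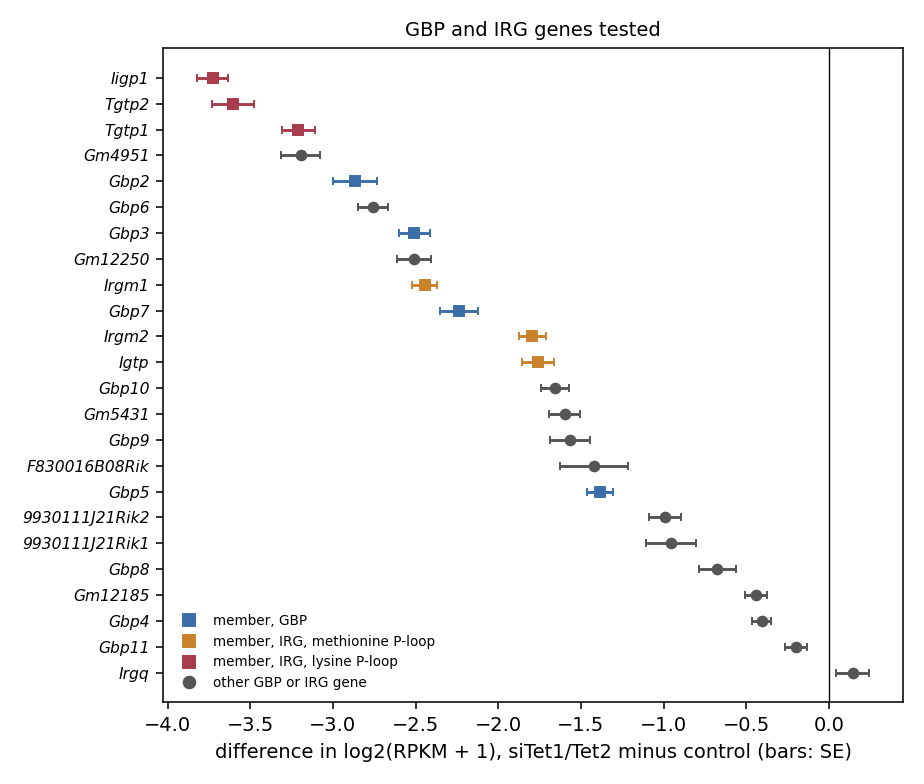
Difference in log2(RPKM + 1), siRNA minus control, with its SE from limma, for the 10 genes (squares, coloured by class) and the 14 other GBP and IRG genes tested (grey circles). Differences run from -3.73 for Iigp1 to 0.14 for Irgq.

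Related GTPases outside the families were examined next. Gvin1, a very large interferon-inducible GTPase, fell 7.28-fold from 31.5 to 4.33 RPKM (limma adjusted p = 5.32e-06). It was the only interferon-inducible gene of this set that was analysed, so no contrast of inducible and constitutive genes is drawn. Of 9 tested genes of the constitutive dynamin superfamily, which shape membranes and mitochondria and include the atlastins, the closest structural relatives of GBPs, 4 were called lower, 0 higher and 5 not called by limma (0 higher also at an unadjusted p under 0.05), with a median log2 difference of -0.14. Of all genes tested, 29.8% were called lower and 14.7% higher. The 4 dynamin superfamily genes called lower were Dnm1l (1.47-fold), Atl2 (1.33-fold), Atl3 (1.23-fold) and Mfn2 (1.14-fold). The call of Mfn2 was lost under median ratio scaling, under quantile normalization, without the variance trend and without any 1 library, and that of Atl3 under quantile normalization. Under median ratio scaling or quantile normalization 2 genes of these lists were called higher.

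The interferon signalling list holds ligands, receptors, kinases, transcription factors and inhibitors of the interferon pathway. Whether the levels of these genes bear on those of the 10 was not tested. Of 17 genes tested, 9 were called lower, 1 higher and 7 not called, beside 29.8% lower and 14.7% higher among all genes, with a median log2 difference of -0.40. Among transcription factors, Stat2 fell 4.57-fold from 83.5 to 18.3 RPKM (limma adjusted p = 6.67e-07). Irf9, its partner on the ISRE, fell 2.28-fold (limma adjusted p = 4.81e-05), and Irf1, an activator of GBP genes, fell 2.00-fold from 36.5 to 18.3 RPKM (limma adjusted p = 2.23e-05).

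The kinase gene Jak2 fell 1.82-fold from 17.1 to 9.38 RPKM (limma adjusted p = 0.000572). Feedback inhibitors of the pathway were lower as well. Usp18, a brake on type I interferon receptors, fell 31.4-fold from 49.3 to 1.57 RPKM (limma adjusted p = 2.51e-06), the largest fold of this list, Socs1 fell 2.75-fold and Socs3 2.06-fold.

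The receptor genes did not share this pattern. Ifnar1 rose from 21.8 to 28.5 RPKM (limma adjusted p = 0.00199). Ifngr1 was at 67.3 and 75.1 RPKM (limma adjusted p = 0.0769), Ifngr2 at 68.0 and 66.5 RPKM (limma adjusted p = 0.811) and Ifnar2 was not called either (limma adjusted p = 0.89). After median ratio scaling or quantile normalization Ifngr1, Jak1 and Irf8 were called higher. Of the ligands, Ifng was listed at 0.001 RPKM in each control library, and Ifng and Ifnb1 were both too low to be tested.

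The partner lists are genes whose products load, anchor or act with these GTPases. Of 10 conjugation and loading genes, from the autophagy machinery that places GBPs and effector IRGs on vacuoles, 5 were called higher, 2 lower and 3 not called, beside 14.7% higher and 29.8% lower among all genes, with a median log2 difference of 0.31. Gabarapl1 rose from 47.7 to 96.8 RPKM (limma adjusted p = 4.03e-05) and Map1lc3b from 44.6 to 67.1 RPKM (limma adjusted p = 0.00113), while Atg3 (limma adjusted p = 0.00832) and Atg16l1 (limma adjusted p = 0.025) fell. The call of Atg3 was lost under median ratio scaling, and that of Atg16l1 under that scaling, quantile normalization and without control replicate 1 or 2 or siRNA replicate 2. With the replicate block Atg12, Gabarap and Map1lc3a were called higher too, which made 8 of 10. Of 10 macrophage markers 5 were called higher and Mrc1 lower, and their part in this list was not tested. Of 5 prenylation genes, which attach the lipid anchor that Gbp2 and Gbp5 carry, limma called 0 in either direction (also 0 at an unadjusted p under 0.05), and their median log2 difference was -0.06.

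Of 6 vacuole recognition genes, 3 were called lower, 1 higher and 2 not called, beside the same 29.8% and 14.7% of all genes. The ubiquitin ligase gene Trim21 fell from 13.8 to 6.04 RPKM (limma adjusted p = 2.4e-05) and the galectin gene Lgals9 from 173.1 to 71.3 RPKM (limma adjusted p = 1.93e-05), whereas Lgals3, a galectin that macrophages also make in quantity, rose from 2055 to 3095 RPKM (limma adjusted p = 0.0165). Of 7 inflammasome genes tested, 5 were called lower, 0 higher and 2 not called by limma (0 higher also at an unadjusted p under 0.05), with a median log2 difference of -0.45. Casp4, which encodes the mouse caspase-11 that GBPs help to activate, fell from 14.1 to 6.51 RPKM (limma adjusted p = 5.9e-05), Nlrp3 from 6.67 to 3.76 RPKM (limma adjusted p = 0.000512) and Casp1 from 74.5 to 50.6 RPKM (limma adjusted p = 0.00152). Differences in these lists were smaller than those of the 10 genes, as the plot of lists shows. Since the 10 were chosen after their lower levels were known, nothing is read from this.

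**Figure D5:**
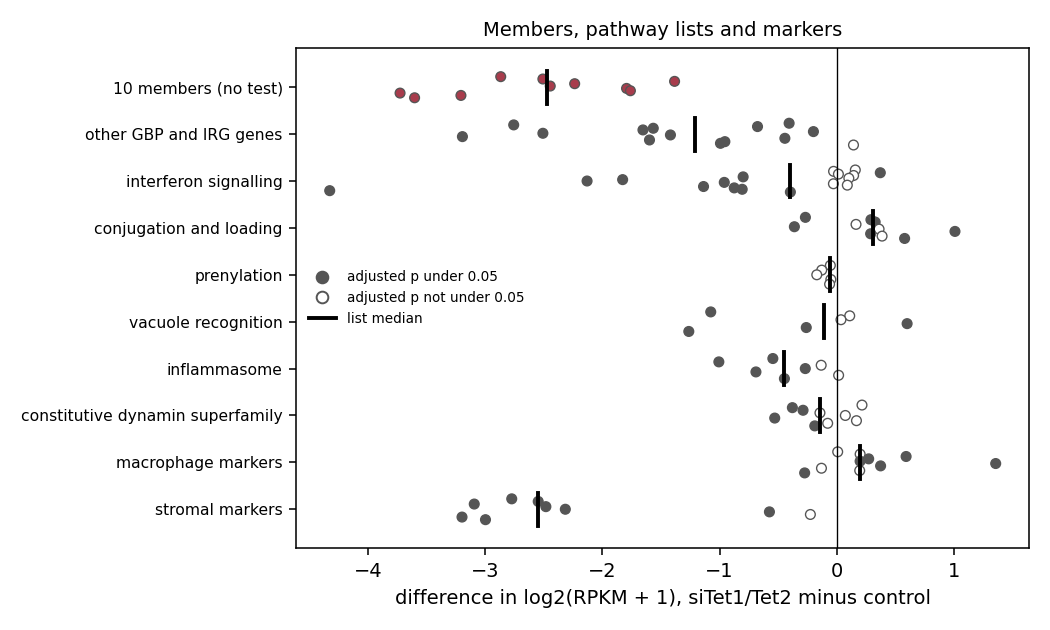
Difference in log2(RPKM + 1), siRNA minus control, for the 10 genes (red, shown with no test) and for each tested gene of the family, pathway, partner and marker lists, filled where the limma adjusted p was under 0.05, with a bar at the list median. The median is -2.48 for the 10 genes, -1.21 for their relatives, -0.40 for interferon signalling, 0.31 for conjugation and loading, -2.55 for stromal markers and 0.20 for macrophage markers.

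The stromal marker list had a median log2 difference of -2.55, beside -2.48 for the 10 genes. The 10 genes are expressed by interferon-exposed cells of many types, and the part of the stromal shift in their levels was not tested. Markers of lymphocytes and NK cells, which make interferon-gamma, summed to 2.53 to 2.75 RPKM in the control group and 7.63 to 8.76 RPKM in the siRNA group. Nearly all of the sum was Cd4, at a mean of 2.56 and 8.06 RPKM, while Cd3g and Ncr1 were at the lowest listed value in every library. Neutrophil markers summed to 3.38 to 3.51 and 9.26 to 16.2 RPKM, with S100a9 at the lowest listed value throughout. S100a8 was called higher, at 1.95 and 12.7 RPKM, and Camp lower, at 1.45 and 0.058 RPKM. Endothelial markers summed to 2.41 to 2.88 and 1.35 to 1.46 RPKM, with Kdr and Emcn called lower, Pecam1 called higher and Cdh5 not called.

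The place of the genes in the genome was examined last. The IRG genes Irgm1, Tgtp1 and Tgtp2 share 1 locus on chromosome 11 (chr11:48861968-49064206), Irgm2 and Igtp a second one, and Iigp1 lies on chromosome 18 (chr18:60376027-60392634). Across the 5 loci of family genes on chromosomes 3, 5, 11 and 18, leaving out Irgc1 and Irgq of chromosome 7, the 3 nearest tested protein-coding genes on each side, 30 in all, were taken by distance alone after the data were seen. Of these, 12 were called lower, 6 higher and 12 not called, where 29.8% of all genes were called lower and 14.7% higher, with a median log2 difference of -0.20. Beside the GBP locus of chromosome 3, 5 of 6 genes were called lower, such as Pdlim5 from 52.5 to 32.1 RPKM, and Gtf2b was called higher, from 35.0 to 44.8 RPKM. These 6 genes lay 98282 (Pdlim5) to 3418777 (Rap1gds1) bases from the locus, so the nearest tested genes were not always near. On chromosome 18 the distances reached 1599307 bases (Slc27a6). Beside Irgm2 and Igtp, 5 of 6 were not called and Cnot8 was called higher (limma adjusted p = 0.0394). Beside the GBP locus of chromosome 5, 3 were called higher, 1 lower and 2 not called.

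The flanking gene with the largest fold was Ifi47, 12381 bases after the first chromosome 11 locus, at 33.4 RPKM in the control group and 5.22 RPKM in the siRNA group (6.40-fold lower, limma adjusted p = 1.3e-06). It is itself an IRG gene that was not on the family list, and without it 11 of 29 flanking genes were called lower. Of genes overlapping that locus, Olfr56, an olfactory receptor gene, fell 15.6-fold from 2.30 to 0.148 RPKM (limma adjusted p = 2.19e-05). Psme2b, a proteasome activator gene copy that also overlaps it, fell 1.75-fold from 112.9 to 64.4 RPKM (limma adjusted p = 0.000174). Reads that Olfr56 and Psme2b may share with other genes were not examined. Overlapping the chromosome 18 locus, Gm4841, also not on the family list, went from 0.378 RPKM to the lowest listed value of 0.001 RPKM (limma adjusted p = 0.000405).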

How the data were processed

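Per the labels and the study's methods, total RNA libraries were sequenced as 100-base pairs. The authors trimmed adaptors, mapped reads to GRCm38 and used DNASTAR Lasergene for abundance. The deposited table holds linear RPKM values (FPKM in the methods). The annotation release, strandedness and the placing of multi-mapping reads were not given in the sources used here. A column of p-values from the authors' own comparison was not used. Mx1 and Mx2 were not analysed here, and 1 gene of the interferon signalling list is not reported here by name.

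The 10 genes, the lists and the alternatives were chosen with earlier results of these data known. Of rows that repeat a symbol (37 symbols), the one highest on average was used, and genes were tested if their mean over the 6 libraries reached 0.1 RPKM. Groups were compared on log2(RPKM + 1) with limma 3.58.1 in R 4.3.3 (lmFit, eBayes with trend, no block), two-sided, with Benjamini-Hochberg adjustment over 13266 genes and a call at an adjusted p under 0.05. Folds are ratios of mean RPKM. The smallest exact permutation p that 3 libraries against 3 allow is 0.1. The fit was tested on simulated data.

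The genes named are the 10, those of the fixed lists (by counts and examples), the 5 most alike in pattern, and flanking genes added after the data were seen. Depth was estimated from whole-read steps of low values (37200000, 32900000 and 32400000 reads in control libraries, 38300000, 38500000 and 35200000 in siRNA libraries). Only 52.0% to 58.4% of those values were within 0.1 of a whole read, where a fixed depth gives 20% by chance, so no count test was run.

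Deviations from group means of libraries with the same label number correlated with r = 0.149, 0.117 and 0.462 across genes, each over 0.1. Yet control 1 with siRNA 2 (r = 0.332) and control 2 with siRNA 1 (r = 0.205) correlated more. These values do not settle whether the numbers pair libraries. The main fit used no block, and a block by replicate number was run as an alternative. Replicates of a group correlated with r = 0.992 to 0.997, libraries of different groups with r = 0.949 to 0.969. Reading frames and shared 100-base windows come from GENCODE M21 (GRCm38) and promoters from RefSeq (GRCm38.p6). The last 30 bases of 12 of 17 promoter windows lay in a GENCODE transcript of the gene. Alternatives were other pseudocounts (0.1, 0.01), filters (none, 1 RPKM), scalings, summed symbols, no variance trend, the replicate block and leaving out each library.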

Additional observations from a re-analysis of the deposited data

How the results depend on the processing

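All 160 values of the 10 genes under the alternatives kept their direction and call. Of 1131 values of other named genes, 1064 kept both, 39 lost and 28 gained a call, and 0 reversed. The median log2 difference of the 10 genes, -2.48, was -3.05 and -3.15 with pseudocounts of 0.1 and 0.01, -2.53 when library sums were made equal, -2.38 after median ratio scaling and -2.33 after quantile normalization, and -2.50 to -2.45 with 1 library left out. The median of all genes moved from -0.09 to -0.13, -0.01 and 0.06 under the same 3 scalings. With the replicate block, 10 of the 10 genes were lower, partner genes called higher went from 6 to 9 (conjugation and loading from 5 to 8), and all genes called were 4468 lower and 2248 higher. The block changed no other list count by over 1.5 times.

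Quantile normalization called 1 other GBP or IRG gene, 5 interferon signalling genes and 10 partner genes higher, 3 related GTPases lower and 2 higher, 3598 of all genes higher, and 7 flanking genes lower. Median ratio scaling called 4 interferon signalling genes and 2 related GTPases higher, and equal library sums called 3 flanking genes higher. With 1 library left out, higher calls were 1 to 2 for interferon signalling (2 without control replicate 3), 0 to 1 for related GTPases (1 without siRNA replicate 2) and 3 to 6 for flanking genes (3 without control or siRNA replicate 2). The cause was not tested. Genes under 0.1 RPKM, such as Tet1, Ifng and Ifnb1, were too low for a comparison.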
